A study of Mus musculus with 8 samples.

Results

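The 40 genes described here encode the cyclins, kinases, checkpoint proteins, kinetochore proteins, motors and cytokinesis factors that carry a cell through mitosis. Their rows were taken from the raw counts by gene symbol alone. The list itself was chosen with earlier results of these data known. All 40 were found among the 37310 genes counted, and all 40 were among the 13028 genes that passed the filter on low counts. The cells were NMuMG, an epithelial line from the mouse mammary gland that undergoes an epithelial-to-mesenchymal transition in response to TGF-β. There were 4 conditions of 2 libraries each, 8 libraries in all. They were untreated control cells, control cells treated with 10 ng/ml TGF-β1 for 2 h, untreated cells labelled KO, and KO cells given the same TGF-β1 treatment. All cells grew in serum and insulin. The KO genotype is a CRISPR-Cas9 deletion at the start of Lnc-Nr6a1 that spans its promoter and exon 1, a long non-coding RNA that hosts miR-181a2 and miR-181b2, and was obtained as homozygous clones. Which clone gave the KO libraries is not given in the sources used here, so differences between genotypes cannot be told apart from differences between clones.

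A cell enters mitosis when CDK1, bound to cyclin A or cyclin B, is freed of its inhibitory phosphates by CDC25 phosphatases. Chromosomes then condense and attach through kinetochores to the spindle, and the spindle assembly checkpoint holds back the anaphase-promoting complex until every kinetochore is attached. Once CDC20 activates that complex, cyclin B is destroyed, sister chromatids part, and the central spindle guides the cleavage furrow. Most of these genes are transcribed in G2 and M phase through the MuvB complex with B-MYB and FOXM1, which acts at the cell cycle genes homology region (CHR) near the transcription start, often together with NF-Y at CCAAT boxes. TGF-β is known to halt the proliferation of epithelial cells in G1.

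The promoters shared this layout. RefSeq windows of build GRCm38.p6, from 250 bases before to 50 after the annotated start, matched 34 of the 40 genes, and no window was used for Ccna2, Cdc25c, Aurkb, Incenp, Tpx2 or Kif20a. A CHR element, searched as TTTGAA or TTCGAA on either strand, lay in 27 of the 34 windows (79.4%), against 21.7% of the 27025 genes with a window. CCAAT on either strand lay in 26 (76.5%), against 41.1% of all genes, and both lay in 23 (67.6%), against 9.65%. The promoters of 8 genes are printed from 160 bases before to 30 after the start, 5′ to 3′ on the gene's strand, with each CHR and CCAAT match in capitals. They were chosen to show the layout in genes whose values are described below, with Ccnb1 as a promoter that holds CCAAT and no CHR match in its window.

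Ccnb2 (chr9:70421525-70421714, minus strand): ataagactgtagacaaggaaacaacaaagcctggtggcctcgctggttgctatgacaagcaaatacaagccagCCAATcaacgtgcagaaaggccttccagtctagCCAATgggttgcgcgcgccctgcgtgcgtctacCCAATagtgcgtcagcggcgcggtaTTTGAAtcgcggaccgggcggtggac
Cdk1 (chr10:69352883-69353072, minus strand): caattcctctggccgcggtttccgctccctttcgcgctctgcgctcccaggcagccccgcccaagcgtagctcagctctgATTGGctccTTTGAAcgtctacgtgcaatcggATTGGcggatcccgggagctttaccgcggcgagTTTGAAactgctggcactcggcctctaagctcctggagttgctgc
Kif4 (chrX:100625905-100626094, plus strand): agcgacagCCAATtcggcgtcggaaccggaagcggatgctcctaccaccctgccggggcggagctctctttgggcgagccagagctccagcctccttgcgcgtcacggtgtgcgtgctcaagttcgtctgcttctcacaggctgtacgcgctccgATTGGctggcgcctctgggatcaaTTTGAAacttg
Bub3 (chr7:131560210-131560399, plus strand): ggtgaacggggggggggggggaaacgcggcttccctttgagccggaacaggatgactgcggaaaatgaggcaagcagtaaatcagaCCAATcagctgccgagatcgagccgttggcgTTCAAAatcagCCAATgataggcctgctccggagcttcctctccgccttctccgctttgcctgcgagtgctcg
Top2a (chr11:99024160-99024349, minus strand): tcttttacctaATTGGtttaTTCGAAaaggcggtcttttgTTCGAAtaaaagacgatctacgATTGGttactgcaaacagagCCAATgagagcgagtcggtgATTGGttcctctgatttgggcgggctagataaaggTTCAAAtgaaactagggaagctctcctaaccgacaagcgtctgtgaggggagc
Mki67 (chr7:135716350-135716539, minus strand): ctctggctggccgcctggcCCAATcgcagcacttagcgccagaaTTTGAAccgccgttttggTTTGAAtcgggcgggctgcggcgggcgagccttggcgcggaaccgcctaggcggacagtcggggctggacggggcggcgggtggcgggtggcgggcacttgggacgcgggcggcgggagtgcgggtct
Cdc20 (chr4:118437314-118437503, minus strand): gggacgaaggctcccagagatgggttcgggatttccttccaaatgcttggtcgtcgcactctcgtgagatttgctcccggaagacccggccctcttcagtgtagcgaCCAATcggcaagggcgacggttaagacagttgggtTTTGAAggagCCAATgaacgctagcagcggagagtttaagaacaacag
Ccnb1 (chr13:100786457-100786646, minus strand): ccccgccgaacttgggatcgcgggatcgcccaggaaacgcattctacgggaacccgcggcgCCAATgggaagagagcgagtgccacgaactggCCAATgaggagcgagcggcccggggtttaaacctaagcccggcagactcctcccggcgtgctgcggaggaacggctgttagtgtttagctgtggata

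All of these printed stretches hold CCAAT, and each CHR printed lies downstream of at least 1 CCAAT box in the 7 that hold one. A further CHR match of Ccnb2, at -167, lies outside its printed stretch and upstream of its CCAAT boxes. Top2a holds both CHR spellings. A match of letters is a description and not a measured binding site.

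The libraries held between 4297832 and 13574397 counts. The epithelial markers Cdh1, Krt8, Krt18 and Krt19 were present in every library, whereas Epcam had at most 2 counts and Cldn7 had 0. Krt7 was near the floor, with 4 to 14 counts. Cldn4 had at most 1 count in any untreated library, 126 and 13 in treated control and 30 and 162 in treated KO. The defining fibroblast, endothelial and immune markers were at or near 0, with summed levels of at most 4.85, 0.847 and 5.58 CPM (counts scaled to library size), against 5870 or more for the epithelial list. The early TGF-β targets Smad7, Skil, Snai1 and Junb were called higher after TGF-β in both genotypes, whereas Id1 was called lower in control (-0.65, adjusted p = 0.048, edgeR) and was at 0.31 and not called in KO. The targeted locus is annotated in the counts as Gm13507. It had 3 and 14 counts in the control libraries, 25 and 35 in the treated control, 11 and 7 in the untreated libraries labelled KO and 0 and 0 in the treated ones, so it separated the genotypes after TGF-β and did not separate them in untreated cells. Levels below are CPM scaled with TMM factors, given as replicate 1 then replicate 2.

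In untreated control cells the mitosis genes spanned a wide range of levels. Mki67 and Top2a had the highest levels per kilobase, in an order that turned with the length used. Over all annotated exons of a gene, Mki67 was at 144 ± 12.6 CPM per kb (SD, n = 2) and Top2a at 100 ± 5.52. Over the longest coding transcript, a length chosen after seeing the data, Top2a was at 174 ± 9.60 and Mki67 again at 144. Cdc25c, at 15.8 ± 4.33 CPM per kb by either length, was among the lowest. Cks2, at 18.3 ± 1.46, lay within the spread of Cdc25c. Over all exons Kif2c lay between them, at 16.3 ± 0.37. Cdca8 was lowest over all exons (9.10 ± 2.26 CPM per kb) and not over its longest coding transcript (29.0 ± 7.20). Summed over the 40 genes, the libraries held 8255 and 8267 CPM in control, 7591 and 10267 in treated control, 6152 and 6823 in KO, and 5808 and 3865 in treated KO. Both treated KO libraries were thus below every other library, and the treated control libraries were far apart from each other. In bulk RNA, fewer cells in mitosis and less mitotic RNA per cell cannot be told apart.

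**Figure D1:**
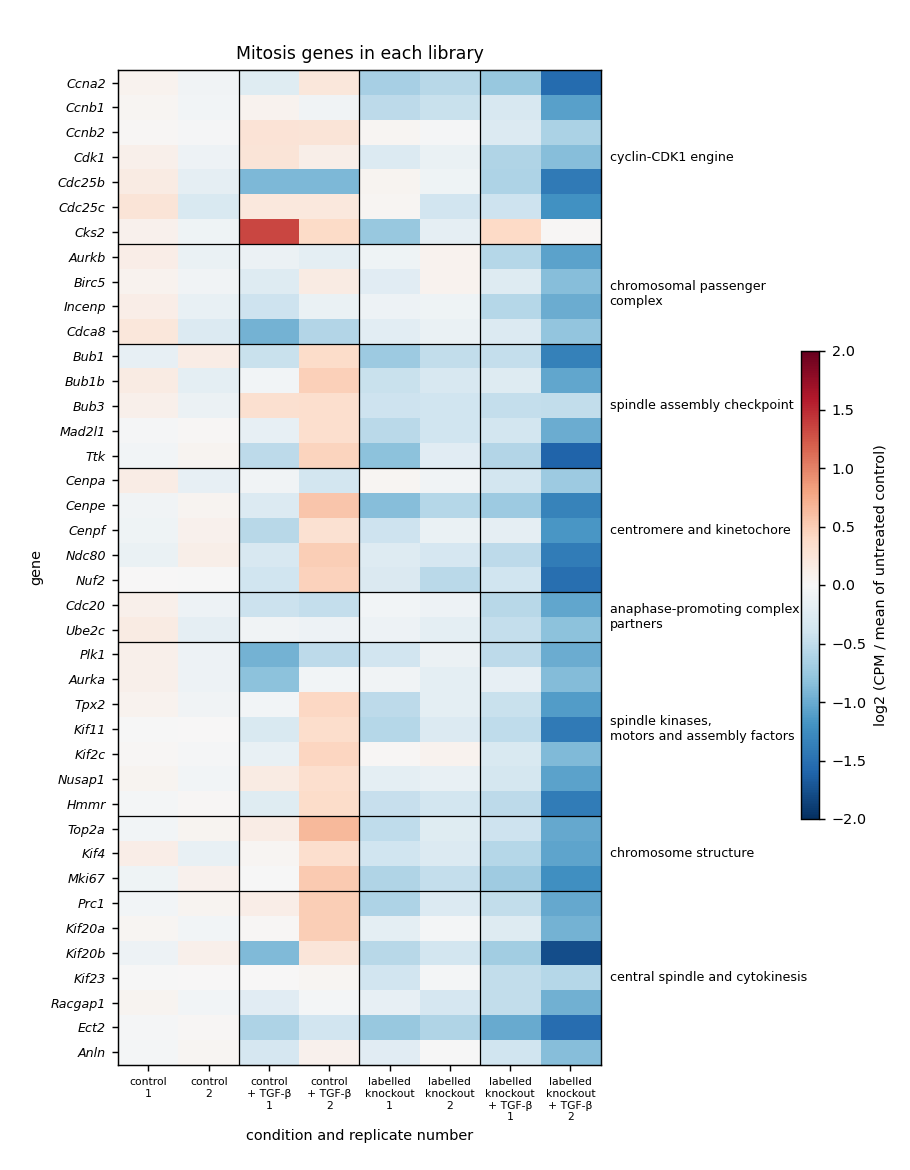
Level of each of the 40 mitosis genes (rows, grouped by role) in each of the 8 libraries (columns), as log2 of its CPM over the mean of the untreated control libraries. Replicate 2 of the treated KO holds the lowest level for 38 of the 40 genes, and replicate 2 of the treated control the highest for 24.

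Among these genes, 16 were called lower in treated KO than in treated control cells and none higher, whereas 6.57% of all genes tested were called lower there and 8.47% higher. A gene was called when its Benjamini-Hochberg adjusted p from edgeR's quasi-likelihood test over all 13028 genes was below 0.05 and its absolute log2 fold change above 0.5. In untreated cells no mitosis gene was called between genotypes, where 0.798% of all genes were called lower and 1.03% higher. After TGF-β, 1 of them was called lower in control cells (background 4.47%) and 3 in KO cells (background 2.57%), and none was called higher in either (backgrounds 4.69% and 4.25%). These comparisons share libraries with one another. The median log2 fold change of the 40 genes was -0.78 between treated genotypes and -0.28 between untreated genotypes, and it was 0.05 for TGF-β in control and -0.46 for TGF-β in KO. The control value became 0.27 without replicate 1 and -0.19 without replicate 2 of the treated control, and the KO value became -0.73 without replicate 1 and -0.15 without replicate 2 of the treated KO. The medians over all genes tested lay between -0.01 and 0.02.

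The cyclin-CDK1 genes start mitosis, and 3 of the 7 were called lower in treated KO cells. Cdk1, the mitotic kinase itself (ENSMUSG00000019942.6, minus strand of chromosome 10, 68799383 to 68815686 on NCBIM37), was at 245 and 212 CPM in control, 271 and 246 in treated control, 189.6 and 208 in KO and 151 and 126 in treated KO. The treated genotypes did not overlap, and their log2 fold change was -0.90 with an SE of 0.15 (adjusted p = 0.0067, edgeR). Every value after ± below is such an SE. Ccna2, cyclin A2, was at 292 and 266 CPM in control, 236 and 326 in treated control, 177 and 189 in KO and 165 and 96.5 in treated KO. Here both KO groups were below both control groups, and the treated difference was -1.10 ± 0.25 (adjusted p = 0.0184, edgeR). Exons of Exosc9 on the other strand cover 14.6% of its exon bases, which leaves its count uncertain, since it is not stated whether reads were counted by strand. Ccnb2, cyclin B2, hardly differed between untreated libraries (71.4 and 69.1 CPM in control, 72.1 and 69.4 in KO) and was at 84.6 and 84.3 in treated control and 58.1 and 45.1 in treated KO. Its treated difference was -0.71 ± 0.16 (adjusted p = 0.0178, edgeR).

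The other 4 genes of that group were not called between genotypes. Ccnb1, cyclin B1, was at 108 and 100.9 CPM in control, 110.1 and 98.8 in treated control, 72.5 and 76.7 in KO and 83.1 and 49.2 in treated KO. Its values in both KO groups were below those in both control groups, with differences of -0.48 ± 0.22 untreated (adjusted p = 0.352) and -0.66 ± 0.22 treated (adjusted p = 0.0727, both edgeR). Cdc25b, a phosphatase that activates CDK1 (ENSMUSG00000027330.9, plus strand of chromosome 2, 131012685 to 131024233), was lower in all treated than in all untreated libraries. It was at 96.5 and 76.3 CPM in control and 89.7 and 81.1 in KO, against 46.4 and 46.4 in treated control and 56.1 and 32.5 in treated KO. It fell after TGF-β by 0.90 ± 0.24 in control (adjusted p = 0.048) and by 0.95 ± 0.24 in KO cells (adjusted p = 0.0479, both edgeR), while the difference between treated genotypes was -0.07 ± 0.24. The fall in control cells lost its call in 6 of the 8 fits without 1 library, in which its log2 fold change was between -1.05 and -0.72 over all 8, and the fall in KO cells became -0.575 and was not called without replicate 2 of the treated KO. Cks2, a small CDK-binding protein and the gene with the lowest CPM of the 40, was at 13.4 and 12 CPM in control, 32.1 and 16.6 in treated control, 7.5 and 11.2 in KO and 16.8 and 12.9 in treated KO. Its TGF-β values of 0.95 ± 0.33 in control (adjusted p = 0.106) and 0.65 ± 0.35 in KO (adjusted p = 0.309, both edgeR) were the only ones above 0.5 among the 40 genes. The control value was 0.38 without replicate 1 of the treated control, and 1.34 and called without its replicate 2 (adjusted p = 0.0221, edgeR). Cdc25c, the related phosphatase, ranged from 13.3 to 36.5 CPM over the libraries.

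The chromosomal passenger complex corrects faulty kinetochore attachments and later steers cytokinesis, and 1 of its 4 genes was called between treated genotypes. Aurkb, its kinase, was at 91.9 and 76.7 CPM in control, 77.7 and 74.0 in treated control, 79.6 and 88.1 in KO and 57.0 and 40.1 in treated KO. The treated KO libraries alone were low, by -0.64 ± 0.19 against treated control (adjusted p = 0.0474) and by -0.79 ± 0.19 against untreated KO (adjusted p = 0.0397, both edgeR). The first of these calls held in 1 of 8 fits without 1 library. Incenp, the scaffold of the complex, was at 161 and 133 CPM in control, 110.4 and 133 in treated control, 137 and 138 in KO and 99.4 and 74.1 in treated KO. Its TGF-β difference in KO cells was -0.67 ± 0.18 (adjusted p = 0.0612, edgeR). Cdca8, borealin, was the 1 gene of the 40 above 0 between treated genotypes, and is named for that after its values were seen. It was at 55.4 and 38.8 CPM in control, 24.6 and 31.4 in treated control, 40.6 and 43.1 in KO and 38.9 and 27.3 in treated KO. The treated groups overlapped, with a difference of 0.24 ± 0.24 (adjusted p = 0.523, edgeR), and that value became -0.02 without replicate 1 of the treated KO. Birc5, survivin, ranged from 54.8 to 110.4 CPM.

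The spindle assembly checkpoint genes encode the proteins that delay anaphase, and all 5 had values below 0 between treated genotypes, from -1.04 to -0.76 on the log2 scale. Only Bub3 was called. Bub3 (ENSMUSG00000066979.5, plus strand of chromosome 7, 138703905 to 138715412) was at 179 and 154 CPM in control, 208 and 209 in treated control, 124 and 127 in KO and 119 and 119 in treated KO. The KO libraries were below the control libraries with no overlap in either condition. Its treated difference of -0.81 ± 0.13 had the smallest adjusted p of the 40 genes (adjusted p = 0.00641, edgeR), and its untreated one was -0.41 ± 0.14 (adjusted p = 0.192, edgeR). In the treated groups the 2 Bub3 libraries were close together (log2 differences of replicate 2 from replicate 1 of 0.01 in control and -0.01 in KO), and its treated difference stayed between -0.81 and -0.79 when any 1 library was left out. Bub1b, BUBR1, was at 226 and 176 CPM in control, 194 and 281 in treated control, 147 and 160.2 in KO and 169 and 98 in treated KO, a treated difference of -0.83 ± 0.27 (adjusted p = 0.0632, edgeR). Bub1, Mad2l1 and Ttk, the other checkpoint genes, ranged from 23.1 to 127 CPM over the libraries.

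Of the 5 centromere and kinetochore genes, 1 was called between treated genotypes. It was Cenpe, a kinesin that carries chromosomes to the spindle equator, at 201 and 219 CPM in control, 174 and 308 in treated control, 116 and 142 in KO and 128 and 83.5 in treated KO. Its treated difference was -1.19 ± 0.28 (adjusted p = 0.0218, edgeR), and its untreated one of -0.70 ± 0.28 was not called (adjusted p = 0.269, edgeR). The treated call of Cenpe was lost at -0.72 without replicate 2 of the treated control and at -0.90 without replicate 2 of the treated KO. Ndc80, which binds microtubules at the outer kinetochore, was at 55.7 and 66.8 CPM in control, 49.2 and 86.5 in treated control, 51.4 and 48.4 in KO and 42.6 and 23.1 in treated KO. The treated difference of -1.04 ± 0.31 missed the threshold (adjusted p = 0.0524, edgeR). Cenpa, the centromeric histone H3 variant, was at 75.4 and 60.7 CPM in control, 64.5 and 52.8 in treated control, 69.7 and 64.7 in KO and 52.9 and 41.2 in treated KO, and its treated groups overlapped (-0.32 ± 0.19, adjusted p = 0.275, edgeR). Cenpf and Nuf2 ranged from 115 to 317 and from 20.4 to 80.2 CPM.

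Of the 2 anaphase-promoting complex partners, neither was called between genotypes, though with the GC correction described below both were called lower between treated genotypes, Cdc20 at -0.62 (adjusted p = 0.0398) and Ube2c at -0.85 (adjusted p = 0.00793, both edgeR). On the coding genes without that correction, Cdc20 was at -0.34 (adjusted p = 0.2) and Ube2c was called at -0.58 (adjusted p = 0.0427, both edgeR). Cdc20, its mitotic activator, was at 136 and 118 CPM in control, 93.7 and 90.8 in treated control, 121 and 118 in KO and 86.3 and 61.7 in treated KO. All treated libraries were below all untreated ones. The TGF-β difference was called in KO cells at -0.69 ± 0.18 (adjusted p = 0.0484) and not in control cells at -0.46 ± 0.18 (adjusted p = 0.131, both edgeR), and the difference of those responses was -0.23 ± 0.25 (adjusted p = 0.837, edgeR). The KO value of Cdc20 became -0.44 and was not called without replicate 2 of the treated KO. Ube2c, the ubiquitin-conjugating enzyme that works with the complex, was at 139 and 109.8 CPM in control, 119 and 116 in treated control, 116 and 109 in KO and 89.2 and 70.3 in treated KO. Its treated difference was -0.56 ± 0.17 (adjusted p = 0.0556, edgeR). Exons of Tnnc2 on the other strand cover 22.8% of its exon bases.

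Among the spindle kinases, motors and assembly factors, Tpx2, Nusap1 and Hmmr were called lower in treated KO cells. Nusap1, a microtubule-bundling protein, was at 107 and 100.5 CPM in control, 116 and 131 in treated control, 91.3 and 93.4 in KO and 81.4 and 49.3 in treated KO, and its treated difference was -0.92 ± 0.22 (adjusted p = 0.0224, edgeR). That call was lost at -0.58 without replicate 2 of the treated KO and at -0.82 without replicate 2 of the treated control. Tpx2, which nucleates spindle microtubules, and Hmmr, a spindle-pole protein, had values of -0.94 ± 0.24 (adjusted p = 0.0294) and -0.996 ± 0.274 (adjusted p = 0.0389, both edgeR). The calls of both held in only 2 of 8 fits without 1 library, and Hmmr was at -0.61 without replicate 2 of the treated KO and at -0.66 without replicate 2 of the treated control. Kif11, the motor that separates spindle poles, was at 442 and 449 CPM in control, 362 and 567 in treated control, 301 and 369.9 in KO and 312 and 167 in treated KO. Its treated difference of -0.96 ± 0.29 was not called (adjusted p = 0.054, edgeR). Kif2c, a microtubule depolymerase at centromeres, was at 72.7 and 70.4 CPM in control, 64.3 and 96.1 in treated control, 73.0 and 75.1 in KO and 57.9 and 38.9 in treated KO. Plk1, the polo-like kinase, was lower in all treated than in all untreated libraries, at 94.2 and 81.9 CPM in control, 45.5 and 61.1 in treated control, 67.7 and 81.1 in KO and 61.3 and 44.3 in treated KO. TGF-β differences of Plk1 were -0.73 ± 0.21 in control (adjusted p = 0.0617) and -0.50 ± 0.21 in KO (adjusted p = 0.201, both edgeR), and the treated genotypes differed by -0.01 ± 0.21, with a 95% interval from -0.48 to 0.46. Plk1 had a GC content of 56.0%, the highest of the 40, and with the GC correction described below that difference was -0.35 (adjusted p = 0.34, edgeR). Aurka, the spindle-pole kinase, also had no clear difference between treated genotypes (-0.08 ± 0.27).

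The 3 genes of chromosome structure were all called lower in treated KO cells, and Mki67 and Top2a had the highest CPM of the 40. Mki67, the Ki-67 protein that coats mitotic chromosomes (ENSMUSG00000031004.7, minus strand of chromosome 7, 142881471 to 142908062), was at 1359.6 and 1539 CPM in control, 1446 and 2084 in treated control, 959 and 1037 in KO and 885 and 619 in treated KO. All KO libraries were below all control libraries. The treated difference was -1.23 ± 0.21, a 2.35-fold lower level (adjusted p = 0.00738), and the untreated one was -0.54 ± 0.21 (adjusted p = 0.266, both edgeR). Top2a, the topoisomerase that untangles sister chromatids, was at 874 and 945 CPM in control, 1008 and 1418 in treated control, 637 and 771 in KO and 681 and 447 in treated KO, a treated difference of -1.10 ± 0.23 (adjusted p = 0.0138, edgeR). Kif4, a chromokinesin, was at 159.9 and 131 CPM in control, 149.7 and 183 in treated control, 111 and 120.4 in KO and 98.2 and 70.2 in treated KO, and differed by -0.98 ± 0.20 between the treated genotypes (adjusted p = 0.0124, edgeR). Pdzd11 on the other strand covers 15.1% of the exon bases of Kif4.

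Central spindle and cytokinesis genes complete division, and 4 of 7 were called lower in treated KO cells. Prc1, which bundles the central spindle, was at 239 and 258 CPM in control, 271 and 351 in treated control, 162 and 205 in KO and 177 and 122 in treated KO, with a treated difference of -1.06 ± 0.21 (adjusted p = 0.0128, edgeR). Ect2, the exchange factor that activates RhoA at the furrow (ENSMUSG00000027699.9, minus strand of chromosome 3, 26996144 to 27052800), was at 242 and 252 CPM in control, 161 and 189 in treated control, 146 and 163 in KO and 123 and 85.6 in treated KO. It was low in the KO libraries of each condition. Its untreated difference of -0.67 ± 0.19 had the smallest p of the 40 genes in that comparison (adjusted p = 0.118), and its treated one was -0.75 ± 0.19 (adjusted p = 0.0271, both edgeR). Kif20a, a central spindle kinesin, was at 221 and 207 CPM in control, 217 and 299.9 in treated control, 186 and 208 in KO and 180.1 and 111 in treated KO. Exons of Cdc23 cover 32.3% of its exon bases, so its treated difference of -0.83 ± 0.23 (adjusted p = 0.0411, edgeR) is the least certain of these in its assignment to a gene. Kif23, which forms the centralspindlin complex with RACGAP1, differed by -0.56 ± 0.15 (adjusted p = 0.0341, edgeR). The calls of Ect2 and Kif20a held in 2, and that of Kif23 in 3, of the 8 fits without 1 library, and without replicate 2 of the treated KO Ect2 was at -0.49 and Kif20a at -0.51. Racgap1 was at 259 and 239.9 CPM in control, 214 and 242 in treated control, 222 and 197 in KO and 177 and 129 in treated KO, and was not called (-0.58 ± 0.17, adjusted p = 0.0524, edgeR). Anln and Kif20b ranged from 246 to 471 and from 61.0 to 245 CPM.

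**Figure D2:**
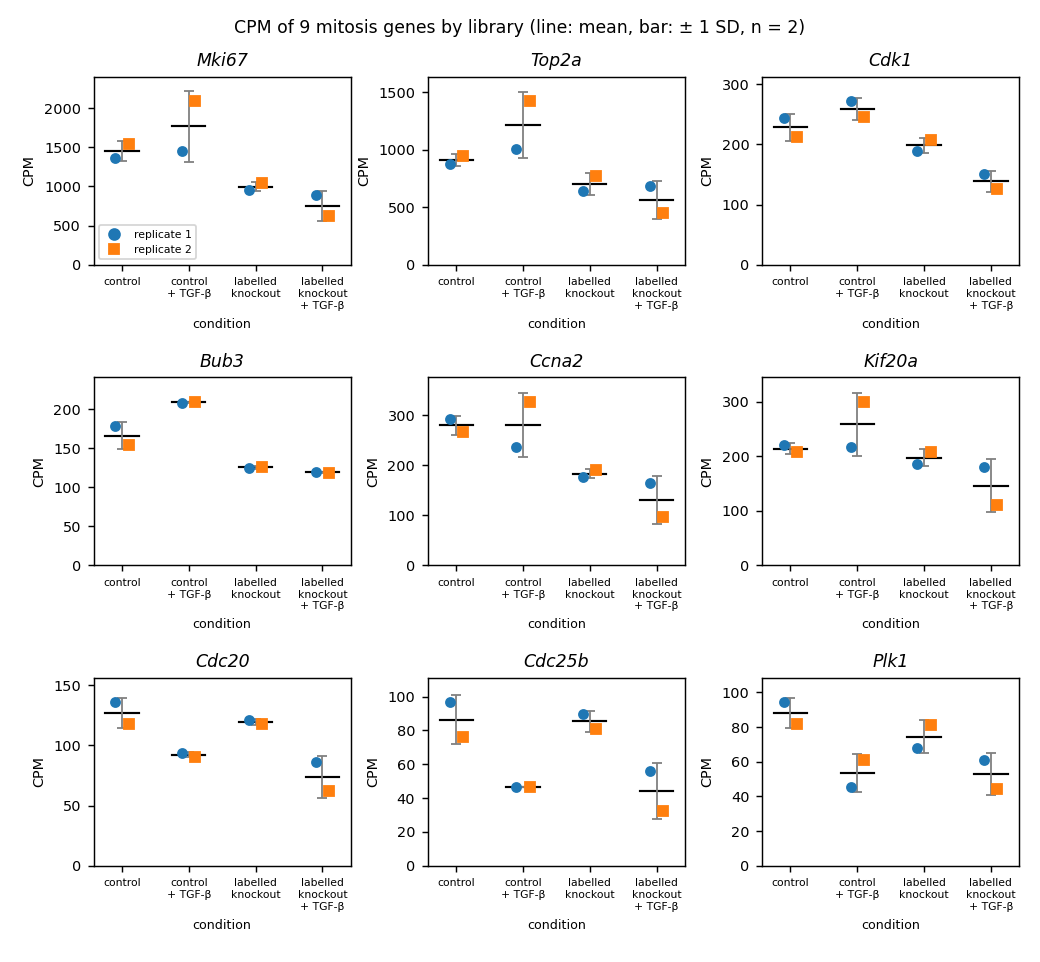
CPM (y axis, from 0) of 9 mitosis genes in the 4 conditions, with circles for replicate 1, squares for replicate 2, a line at the mean and bars of ± 1 SD (n = 2). Mki67 is at 885 and 619 CPM in treated KO against 1446 and 2084 in treated control, whereas Plk1 is at 61.3 and 44.3 against 45.5 and 61.1.

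Between untreated genotypes, 38 of the 40 genes had a log2 fold change below 0, against 47.9% of all genes tested, and the largest were Cenpe at -0.70 and Ect2 at -0.67. At an unadjusted p below 0.05 from the same edgeR test, 5 were lower (Ect2, Bub3, Mki67, Cenpe and Ccna2), where 7.22% of all genes were, and none was higher, where 7.64% were. DESeq2 called 1 lower, Ect2. These 5 genes lie on chromosomes 3 and 7, on which most genes were lower in the KO libraries. The 2 chromosomes were set apart after seeing the data, so the medians below partly follow from that choice. Ccna2, Cenpe and Ect2 are on chromosome 3 and Bub3, Mki67, Plk1 and Prc1 on chromosome 7. The 7 genes had a median of -0.54, beside -0.28 over all 1584 tested genes of the 2 chromosomes. The 33 on other chromosomes had a median of -0.20, beside 0.05 over their 11444 genes. The part of chromosome position in these differences was not tested.

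Between treated genotypes, 39 of the 40 genes were below 0, where 50.9% of all genes were. The groups of 31 genes did not overlap, with KO lower, against 27.4% of all genes tested. The same split by chromosome, chosen after seeing the data, was applied here. Of the 7 genes on chromosomes 3 and 7, 6 were called lower (median -1.06), where 244 of all 1584 genes there were (median -0.23). On the other chromosomes 10 of the 33 were (median -0.73), where 612 of 11444 genes were (median 0.01). Genes with a CHR match gave 10 called of 27 (median -0.75), genes with a window and no CHR match 2 of 7 (median -0.76), and the 6 without a window 4. Cdc25b, Aurka and Plk1 had values near 0, which with the GC correction described below became -0.27, -0.17 and -0.35 (none called).

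**Figure D3:**
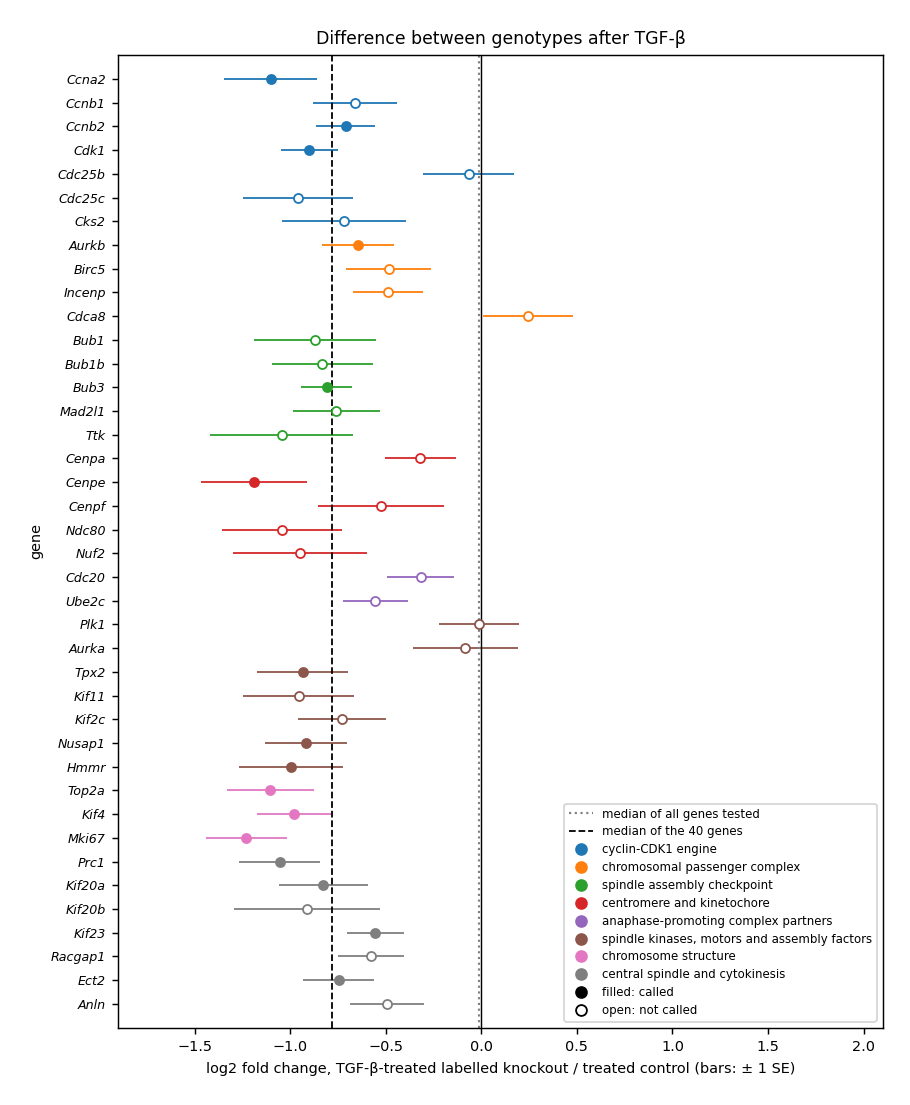
Log2 fold change of each mitosis gene between treated KO and treated control cells (x axis, bars ± 1 SE), coloured by role and filled where called. The 40 genes centre on -0.78 (dashed line) and all genes tested on -0.01 (dotted line), with Cdca8 alone above 0.

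The number of calls rested on single libraries, most of all on replicate 2 of the treated KO. All 40 genes were lower in that library than in replicate 1 (median log2 difference -0.60), and 30 were higher in replicate 2 than in replicate 1 of the treated control (median 0.42). Without replicate 2 of the treated KO, 2 genes remained called, Bub3 and Mki67, where 1.06% of all genes were called lower in that fit, and the median was -0.49. Without replicate 2 of the treated control 8 were called (3.83% of all genes), without either untreated control library 10 (3.94%), without replicate 1 of the treated control 26 (8.55%), and without replicate 1 of the treated KO 27 (3.4%). With replicate 2 of both treated groups left out, an alternative chosen after seeing the data, Bub3, Cdk1 and Mki67 were called lower (4.91% of all genes) and Aurka higher (5.98%), and the median was -0.27. That fit compares 1 library with 1, with the spread taken from the untreated groups alone. Fitted on the 4 treated libraries alone, edgeR called none (1.16% of all genes), whereas DESeq2 on all libraries called 28 (4.48%). Bub3 and Mki67 were called in each of the 8 fits without 1 library.

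The replicate differences moved with base composition. The GC content of the longest coding transcript had a median of 46.9% in the mitosis genes (39.4% to 56.0%) and 50.3% over 11428 tested coding genes. Across those 11428 genes the Spearman correlation of GC with the log2 difference of replicate 2 from replicate 1 was -0.44 in control, -0.50 in treated control, -0.06 in KO and 0.38 in treated KO. With the log2 fold change between treated genotypes it was 0.44, and genes under 45% GC had a median of -0.25 there while genes above 55% had 0.39. Between untreated genotypes it was 0.37, with medians of -0.19 and 0.18 for the same genes, and over the 40 mitosis genes it was 0.68 untreated and 0.56 treated. Genes are not independent replicates, and the points share the same 8 libraries. Both of the following fits were chosen after seeing the data. With the coding genes alone and no correction, 23 mitosis genes were called lower between treated genotypes (7.95% of the coding genes), all of the 16 among them, with a median of -0.81. With a GC correction fitted to the same genes there were 25 (8.78%), 15 of the 16 among them, with a median of -0.73. The gene of the 16 that lost its call was Kif23, at -0.44. The part of base composition in the calls was not tested further.

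**Figure D4:**
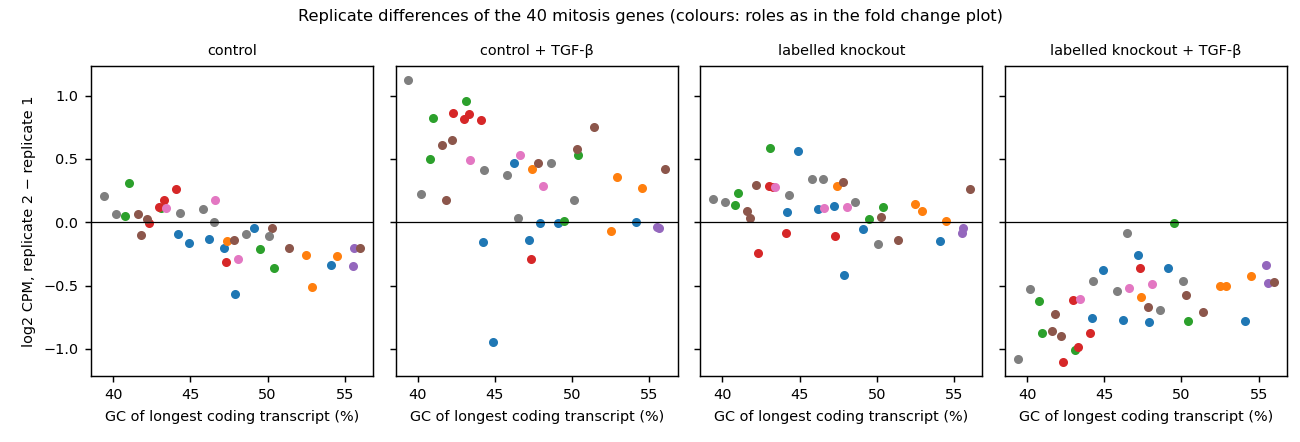
Log2 difference of replicate 2 from replicate 1 (y axis) for each of the 40 mitosis genes against the GC content of its longest coding transcript (x axis), 1 panel per condition. In treated KO all 40 points lie below 0, with Bub3 nearest to it at -0.01, and in treated control 30 lie above 0.

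In control cells, mean levels of most mitosis genes after 2 h of TGF-β were near the untreated ones. The treated control libraries were far apart, so a lack of response is not shown. The median log2 fold change of 0.05 became 0.27 without replicate 1 and -0.19 without replicate 2 of the treated control. Of the 40 genes, 15 were below and 25 above 0 (48.6% of all genes were below), and the call of Cdc25b was the only one. That call was lost with limma-voom, on thinned counts and with the GC correction, where Ect2 was called lower instead. Besides Cdc25b, Cks2, Plk1 and Ect2 (-0.50 ± 0.18, adjusted p = 0.122), the gene with the smallest p was Cdca8 at -0.75 ± 0.24 (adjusted p = 0.081, both edgeR). With 1 library left out, the Cdca8 value ranged from -0.98 to -0.47. At an unadjusted p below 0.05 from edgeR, 5 genes were lower, where 13.2% of all genes were, and 2 were higher, where 13.6% were. In KO cells 39 of the 40 were below 0 after TGF-β, against 49.9% of all genes, with Cks2 the exception, and 15 had an unadjusted p below 0.05 from edgeR, where 10.5% of all genes were lower by that measure. Aurkb, Cdc25b and Cdc20 were called lower there, followed by Incenp and by Cdk1 at -0.52 ± 0.15 (adjusted p = 0.0744, edgeR). None of the 3 calls held without replicate 2 of the treated KO, and none held without any 1 of the untreated libraries, control or KO.

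The difference between these responses was tested as an interaction term, and it passed the adjusted threshold for 0 of the 40 genes, as for 0 of all 13028. By unadjusted p from edgeR below 0.05, 8 were below 0, where 3.78% of all genes were, and none above, where 4.93% were. The smallest p belonged to Cdk1 (-0.70 ± 0.21, adjusted p = 0.474), Ccnb2 (-0.72 ± 0.22, adjusted p = 0.474), Nusap1 (-0.75 ± 0.30, adjusted p = 0.538), Aurkb (-0.64 ± 0.27, adjusted p = 0.54) and Kif2c (-0.78 ± 0.33, adjusted p = 0.54), all from edgeR. With 1 library left out, Cdk1 ranged from -0.80 to -0.54 and Ccnb2 from -0.88 to -0.51. Nusap1 ranged from -1.12 to -0.39, Aurkb from -0.88 to -0.37 and Kif2c from -1.06 to -0.43. DESeq2 called none of the 40 either. It is therefore not shown that TGF-β acted differently on any of these genes in the 2 genotypes. By group means, 22 genes had the order treated KO, KO, control, treated control from lowest to highest, and treated KO was lowest for 38.

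**Figure D5:**
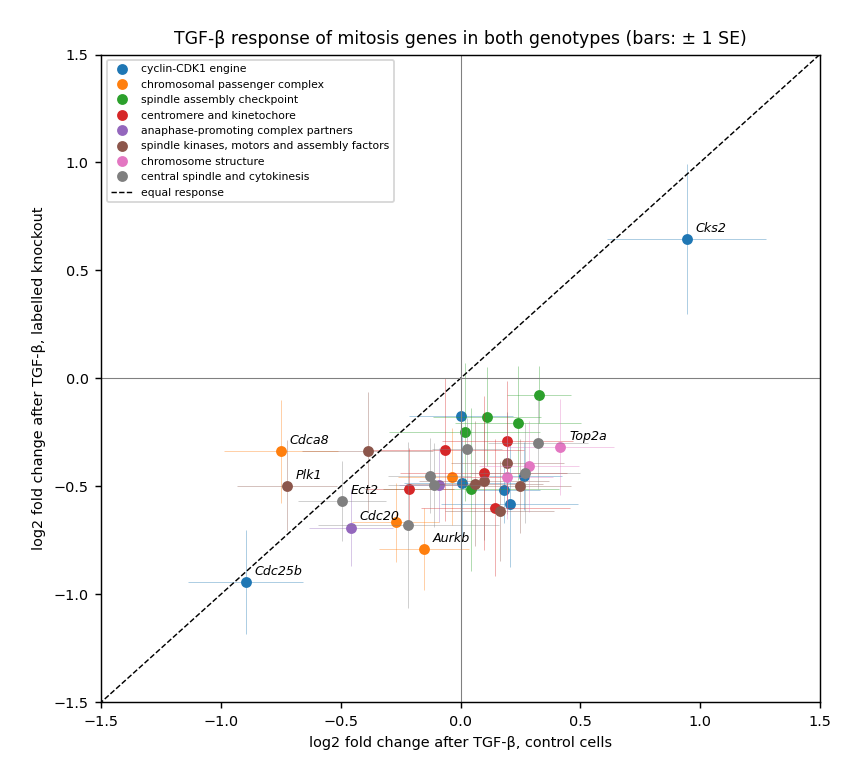
Log2 fold change after 2 h of TGF-β in KO cells (y axis) against that in control cells (x axis) for the 40 mitosis genes, with bars of ± 1 SE, colours by role and a dashed line of equal response. Cdc25b lies low on both axes (-0.95 and -0.90) and Cks2 high on both (0.65 and 0.95), while most genes lie near 0 for control and below 0 for KO.

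Genes that work beside these 40 were read from lists of whole complexes and pathways. The lists were read in the fit on all 8 libraries alone. How far their counts depend on single libraries was not tested. Of 15 regulators in the MuvB, B-MYB and FOXM1 list, 5 were called lower and none higher between treated genotypes (median -0.44), namely Lin9, a MuvB subunit, at -1.31 ± 0.16 (adjusted p = 0.00218), Rbl1 at -1.06 ± 0.21 (adjusted p = 0.0121), Nfyb, Mybl2 (B-MYB) and Tfdp1 (all edgeR). Foxm1 was at 0.26 ± 0.16 there and was called lower after TGF-β in control (-0.91, adjusted p = 0.00972) and in KO cells (-0.73, adjusted p = 0.025, both edgeR). Condensin subunits, which compact chromosomes, gave 4 of 8 called lower between treated genotypes (Ncapd3, Ncaph, Smc2 and Smc4, median -0.89). Other kinetochore genes gave 8 of 29 (median -0.71) and other mitotic kinases and motors 5 of 28 tested (median -0.53). These counts stand beside the 6.57% of all genes called lower in that comparison. Cohesin and separase genes were near that share, at 1 of 13 (7.69%), Pttg1, which is securin (median -0.50). The anaphase-promoting complex was also near it at 7.14%, with a median of -0.08 over 14 subunits and regulators, Fbxo5 called lower (-0.96) and Anapc2 higher (1.35). Anapc2 was the 1 gene of all these lists called between untreated genotypes (0.69, adjusted p = 0.0492, edgeR).

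DNA replication genes, which act in S phase before mitosis, were read in the same way. Of 30 in the list, 21 were called lower between treated genotypes (median -0.86), where 6.57% of all genes were, among them Cdc6, a licensing factor, at -1.41 (adjusted p = 0.00272), and Mcm3, a helicase subunit, at -0.99 (adjusted p = 0.00339, both edgeR). In KO cells 12 of the 30 were called lower after TGF-β (median -0.68), where 2.57% of all genes were. In control cells 2 were, Uhrf1 and Cdt1, a share of 6.67% near the 4.47% of all genes. Only 5 of 24 replication promoters held a CHR match (20.8%), against 27 of 34 for mitosis, while 17 of 24 held CCAAT (70.8%). Between the untreated genotypes none of the 30 was called by edgeR (0.798% of all genes were called lower), and 4 were lower at an unadjusted p below 0.05, where 7.22% of all genes were.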

How the data were processed

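Total RNA from 8 NMuMG cultures was sequenced. Per the labels the kit was TruSeq Stranded TOTAL RNA with paired reads, while the study's methods give a stranded mRNA kit with single reads. The study's methods name subjunc, removal of duplicates with samtools and DESeq2, and the submitters' processing notes name HISAT2, limma and mm10. How reads were assigned to genes, and whether by strand, is not given in the sources used here. The authors deposited raw counts of reads per gene, not normalized, with 4297832 to 13574397 counts per library. All 37310 gene identifiers and their order matched GENCODE vM1 (NCBIM37), whose coordinates are used for genes. Promoter windows are RefSeq, GRCm38.p6.

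Counts were fitted with edgeR 4.0.16 (R 4.3.3; TMM factors, filterByExpr, quasi-likelihood test, no block, all 8 libraries, 4 residual degrees of freedom), with Benjamini-Hochberg adjustment over 13028 genes. SE is the absolute log2 fold change over the square root of F, and 95% intervals cover the fitted difference. The fit was tested on simulated data. Where a fit left 1 library in a group, it was assumed to vary like the other groups. DESeq2 1.42.0, limma-voom (limma 3.58.1), other filters and factors, thinned counts, the 4 libraries of a comparison alone, a replicate block and each library left out were the alternatives. In each comparison the genes named were those called, at most the 15 with the smallest adjusted p, or at least the 5 with the smallest p. Aurkb, which ranks 16th, is named under another comparison. The genes, lists and tests were chosen with earlier results of these data known. Groups of 2 libraries, described as biological replicates, limit the precision. With 2 against 2, an exact permutation test of single genes could not reach the threshold and was not run.

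Same-numbered replicates did not deviate together in all comparisons. CPM were scaled by the TMM library size, and a count of 3 corresponds to 0.238 to 0.661 CPM.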

Additional observations from a re-analysis of the deposited data

How the results depend on the processing

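Among the genes named by the rule and Cdca8, which were followed through the alternatives, Cdca8 alone changed direction, between treated genotypes without replicate 1 of the treated KO (-0.0232), and was at 0.67 without replicate 2 of both treated groups. Aurka, outside the rule and at -0.08 between treated genotypes, was called higher there. The medians of the 40 genes with 1 library left out ranged from -1.08 to -0.49 between treated genotypes, from -0.19 to 0.27 for TGF-β in control and from -0.73 to -0.15 for TGF-β in KO. With replicate 2 of both treated groups left out they were -0.27, -0.19 and -0.15. Calls lower between treated genotypes numbered 28 with DESeq2, 29 with no filter on low counts, 0 on the 4 libraries alone, 23 on the coding genes alone and 25 with GC correction of those, 3 (and 1 higher) without replicate 2 of both treated groups, and 2 to 27 with 1 library left out. Between untreated genotypes they numbered 1 with DESeq2, 5 with no filter, 6 on the 4 libraries alone, 6 without replicate 2 of both treated groups, and 0 with any 1 library left out. For TGF-β in control they numbered 3 with DESeq2, 0 with limma-voom, 4 with no filter (and 1 higher), 0 on thinned counts, 7 (and 1 higher) without replicate 2 of both treated groups, and 0 to 2 (0 to 1 higher) with 1 library left out. For TGF-β in KO they numbered 5 with no filter, 0 on the 4 libraries alone, 3 on the coding genes alone and 7 with GC correction of those, 0 without replicate 2 of both treated groups, and 0 to 7 with 1 library left out. The cause of these shifts was not tested. Over all alternatives, the values of the genes named in the comparisons kept direction and side of the threshold in 599 cases, lost the call in 105 and gained one in 41. The coding genes alone, GC correction and the joint omission were chosen after seeing the data.

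The replicate numbers were not taken to pair the libraries, since the deviations of same-numbered libraries correlated over all genes at 0.10, -0.47, 0.30 and -0.01 in the 4 comparisons, and over the 40 genes at 0.44, -0.67, 0.57 and 0.01. With the replicate number as a block, 13 genes were called lower between treated genotypes, 11 of them among the 16, with 0 between untreated genotypes, 1 for TGF-β in control and 3 in KO. With the numbers of the treated KO libraries exchanged in that block, chosen after seeing the data, the counts were 29, 2, 4 and 8.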
